A study of Mus musculus with 15 samples.

Results

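Liver transcripts of 8 genes that break down neutral lipid or assist in it were compared between mice on a ketogenic diet, a high-fat diet and chow. The genes were chosen by name, 8 of 25731 measured: the intracellular triglyceride lipase Pnpla2 and its coactivator Abhd5, the next enzymes of that pathway Lipe and Mgll, the related droplet protein Pnpla3, the lysosomal lipase Lipa and the extracellular lipases Lipc and Lpl. All 8 passed the filter on low counts. Total RNA came from livers of C57BL/6 mice, an inbred laboratory strain, with 5 ketogenic, 5 high-fat and 5 chow libraries. Mice received either fat-rich diet for 3 days when 12 weeks old. Neither the age of chow mice nor sex or diet composition is given in the sources used here. The labels number each library but do not say more about its origin, so p-values measure the spread between these samples.

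Triglyceride stored in lipid droplets is opened by adipose triglyceride lipase (the product of Pnpla2), which needs the coactivator CGI-58 (Abhd5). Hormone-sensitive lipase (Lipe) and monoacylglycerol lipase (Mgll) then release the remaining fatty acids. A second route delivers lipid to the lysosome, where the acid lipase encoded by Lipa cleaves cholesteryl esters and triglyceride, and hepatic lipase (Lipc) and lipoprotein lipase (Lpl) act outside the cell on circulating lipoproteins. Pnpla3 resembles Pnpla2 in sequence, sits on droplets, can sequester CGI-58, and is known as a target of the lipogenic factors SREBP1 and ChREBP.

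On the ketogenic diet the genes moved apart. Mgll, Pnpla2, Lipa and Lipc were higher than on chow, Pnpla3, Lpl and Abhd5 were lower, and Lipe did not pass the test. This made 7 of 8 genes changed, where 30.8% of the 13967 genes tested changed in that comparison. In 6 of them the libraries of the diets did not overlap, as in 22.3% of all genes. On the high-fat diet 2 of 8, Pnpla3 and Lpl, were lower than on chow, where 15.6% of genes changed, and in both the libraries did not overlap (10.3% of genes). That count was 4 with DESeq2 and with a stricter filter, and 5 without high-fat replicate 9; Abhd5 passed in 9 and Lipa in 4 of 23 alternatives. Ketogenic against high-fat livers differed in 5 of 8, with Mgll, Lipa, Lipc and Pnpla2 higher and Pnpla3 lower, where 26.1% of genes changed. Libraries did not overlap in 5 genes, Abhd5 among them and Lipc not (17.0% of genes). Both comparisons with chow use the same 5 chow libraries. Changed here means an adjusted p under 0.05 in edgeR's quasi-likelihood F test with Benjamini-Hochberg adjustment over all genes tested, and every adjusted p below is from that test. The median size of the log2 fold change, sign left aside, was 0.47 over the 8 genes in ketogenic against chow and 0.20 over all genes. The same medians were 0.24 and 0.16 in high-fat against chow, and 0.31 and 0.18 in ketogenic against high-fat.

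**Figure D1:**
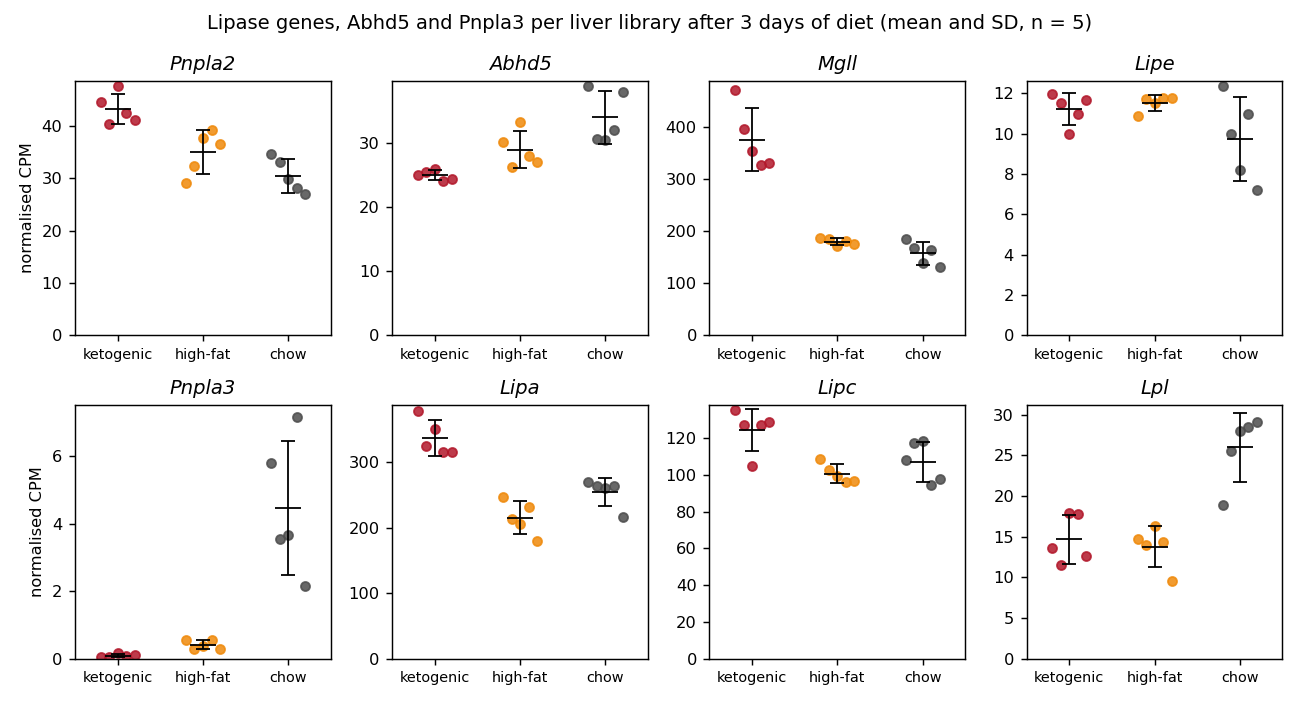
Normalised CPM (counts scaled to library size with TMM factors, linear axes from 0) of each gene in the 5 ketogenic, 5 high-fat and 5 chow libraries, with the mean and SD as bars. Mgll stands between 327 and 472 in ketogenic livers and at 186 or less in the others, and Pnpla3 lies near 0 in ketogenic and high-fat livers.

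Totals per library were 34707597 to 50914494 reads in ketogenic, 30121672 to 44764257 in high-fat and 30190806 to 43688344 in chow livers. All 10 hepatocyte markers examined, among them Alb and Apob, were present in every library. In ketogenic against chow 3 of them (Fgb, Ttr, Serpina1c) fell and 1 (Apob) rose, where 14.6% of all genes fell and 16.2% rose. Markers of red blood cells were lower in ketogenic than in chow livers in 6 of 6 genes, where 14.6% of all genes fell. Their summed level was 338 to 555 normalised CPM in ketogenic, 400 to 1167 in high-fat and 735 to 1077 in chow livers. B and T cell markers fell in 5 of 10 genes in ketogenic against chow, beside the same 14.6% of all genes. Their sums were 3.94 to 5.18 normalised CPM in ketogenic, 4.71 to 9.08 in high-fat and 6.14 to 16.7 in chow livers. Their part in the results below was not tested. In bulk tissue, fewer cells of a type and less RNA per cell cannot be told apart.

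Pnpla2 lies on chromosome 7 (chr7:141455198-141460743, plus strand, GRCm38). It had 44.6, 40.3, 47.6, 42.5 and 41.3 normalised CPM in the ketogenic libraries, against 29.1, 32.3, 37.8, 39.4 and 36.6 in the high-fat libraries and 34.6, 33.1, 29.8, 28.1 and 27.0 in the chow libraries. Every ketogenic library was above every high-fat and every chow library, while high-fat and chow libraries overlapped. The level was 1.42-fold that of chow on the ketogenic diet (log2 fold change 0.50 ± 0.08 SE, adjusted p = 0.000187) and 1.23-fold that of high-fat livers (0.30 ± 0.08, adjusted p = 0.0128). High-fat against chow gave 0.20 ± 0.08 with an adjusted p of 0.122, which did not pass.

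Abhd5, on chromosome 9 (chr9:122351608-122381524, plus strand), went the other way. Its normalised CPM was 25.1, 25.5, 26.02, 24.1 and 24.4 in ketogenic livers, against 30.2, 26.2, 33.3, 28.1 and 27.1 in high-fat livers and 39.0, 30.6, 30.5, 32.1 and 37.9 in chow livers. The ketogenic libraries lay close together and below all others. Abhd5 fell by 0.44 ± 0.08 on the log2 scale in ketogenic against chow (adjusted p = 0.000298), a level 26.4% below that of chow. Ketogenic against high-fat gave -0.21 ± 0.08 (adjusted p = 0.0523) and high-fat against chow -0.23 ± 0.08 (adjusted p = 0.0539). Neither passed, although the ketogenic and high-fat libraries did not overlap.

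The ratio of the lipase to its coactivator within each library describes the same values in another form. Pnpla2 TPM (a level per transcript length, scaled to the same total in each library) divided by Abhd5 TPM ran from 2.10 to 2.59 in ketogenic livers (median 2.40), from 1.198 to 1.83 in high-fat livers (median 1.53) and from 0.791 to 1.34 in chow livers (median 1.23). Ketogenic ratios did not overlap with those of the other diets. Every ketogenic library was already above all others for Pnpla2 and below them for Abhd5, so this restates those levels. Plin5, a perilipin that binds CGI-58 on droplets of oxidative tissues, was higher on the ketogenic diet than on chow (log2 fold change 1.32 ± 0.10, adjusted p = 2.37e-08). Plin5 per Abhd5 reached a median of 4.96 in ketogenic livers, against 1.78 in high-fat and 1.38 in chow livers. This ratio likewise restates the separate levels of both genes.

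G0s2 and Hilpda encode small inhibitors of adipose triglyceride lipase. Hilpda, at a low level, averaged 2.39 ± 0.114 normalised CPM in ketogenic, 1.67 ± 0.214 in high-fat and 1.71 ± 0.361 in chow livers (SD, n = 5 each), and rose in ketogenic against chow (log2 fold change 0.48 ± 0.15, adjusted p = 0.0173). G0s2 was more scattered, at 58.3 to 141 in ketogenic, 26.4 to 136 in high-fat and 25.7 to 76.9 normalised CPM in chow livers. Its log2 fold changes over chow of 1.12 ± 0.43 (ketogenic, adjusted p = 0.0659) and 0.995 ± 0.43 (high-fat, adjusted p = 0.137) did not pass. Per unit of Pnpla2, G0s2 overlapped between all diets, with medians of 5.51, 7.56 and 3.04 in ketogenic, high-fat and chow livers.

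**Figure D2:**
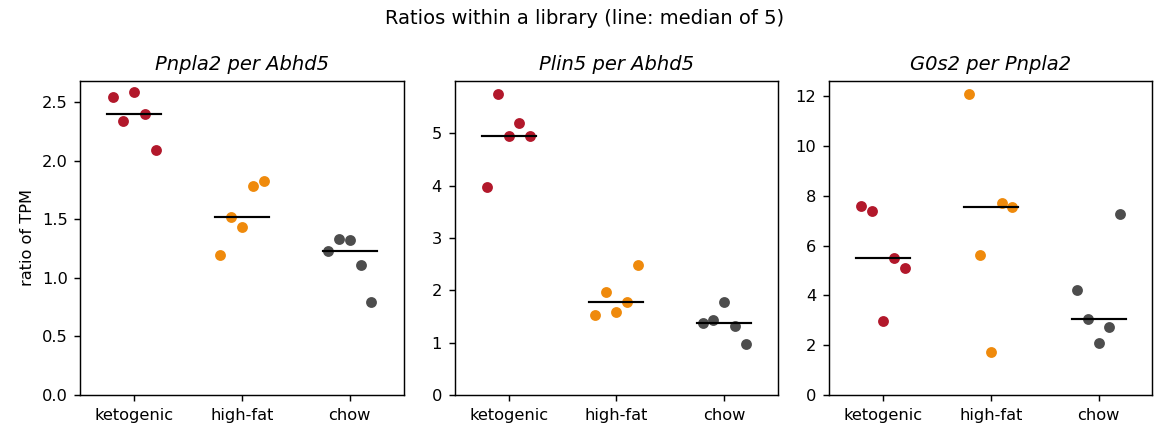
Ratios of TPM within each library (points) with the median of 5 (line), for Pnpla2 per Abhd5, Plin5 per Abhd5 and G0s2 per Pnpla2 in ketogenic, high-fat and chow livers. The first ratio is at least 2.10 in ketogenic livers and at most 1.34 in chow livers, while the third overlaps between diets.

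Mgll, on chromosome 6 (chr6:88724412-88828360, plus strand), showed the largest rise of the 8 genes. Its product cleaves monoacylglycerol, the last step of triglyceride breakdown, and also inactivates the endocannabinoid 2-arachidonoylglycerol. Normalised CPM was 472, 396, 355, 327 and 331 in ketogenic livers, against 186, 184, 171, 181 and 175 in high-fat livers and 185, 169, 139, 164 and 132 in chow livers. The lowest ketogenic library stood well above the highest of the others, and high-fat and chow libraries overlapped.

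The ketogenic level of Mgll was 2.38-fold that of chow (log2 fold change 1.25 ± 0.10, adjusted p = 5.98e-08) and 2.10-fold that of high-fat livers (1.07 ± 0.10, adjusted p = 8.88e-07). By log2 fold change in ketogenic against chow it ranked 177 from the top of 13967 genes. High-fat against chow gave 0.19 ± 0.10, which did not pass (adjusted p = 0.223). Nearly all of the signal came from 1 protein-coding transcript, Mgll-204, which held 96.3 to 98.3% of the TPM of the gene in the 15 libraries.

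The 250 bases before the RefSeq start of Mgll (GRCm38.p6, plus strand) coincide with the start of Mgll-204. They are printed because this transcript carries the largest rise, with matches to searched motifs in capitals:
Mgll, chr6:88724162-88724411: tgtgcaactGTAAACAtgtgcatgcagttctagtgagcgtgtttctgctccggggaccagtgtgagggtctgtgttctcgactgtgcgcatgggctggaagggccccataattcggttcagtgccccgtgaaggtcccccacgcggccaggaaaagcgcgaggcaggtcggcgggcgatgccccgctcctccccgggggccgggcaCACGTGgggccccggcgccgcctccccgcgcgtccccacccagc
The capitals mark an E-box (CACGTG) 44 bases before the start, which 6.02% of 32851 RefSeq promoter windows of this length hold, and the letters of a FoxO site (TGTTTAC, here on the other strand) 241 bases before it, which 3.17% hold. A match describes the letters in this window and says nothing about binding.

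Lipe (chr7:25379527-25398710, minus strand) encodes hormone-sensitive lipase, whose main known site is fat tissue. It was low in every library, at 12.0, 11.5, 9.98, 11.0 and 11.7 normalised CPM on the ketogenic diet, against 10.9, 11.7, 11.5, 11.8 and 11.8 on the high-fat diet and 12.4, 9.99, 8.20, 11.0 and 7.19 on chow. The chow libraries spread most and spanned the range of the others. Log2 fold changes over chow were 0.20 (95% interval -0.03 to 0.43, adjusted p = 0.174) on the ketogenic diet and 0.24 (0.01 to 0.47, adjusted p = 0.144) on the high-fat diet. Without chow replicate 15, the highest library, both passed, with 0.30 (adjusted p = 0.0334) and 0.34 (adjusted p = 0.0386). Ketogenic against high-fat gave -0.04 (-0.27 to 0.19, adjusted p = 0.827).

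Other genes of monoacylglycerol turnover changed in part. Of 9 tested, 4 rose and 5 did not pass in ketogenic against chow, where 16.2% of all genes rose and 14.6% fell. The acyltransferase gene Mogat1, which rebuilds diacylglycerol, rose by 1.52 ± 0.23 on the log2 scale (adjusted p = 5.70e-05), and Gde1, a glycerophosphodiesterase, by 0.71 ± 0.09 (adjusted p = 8.84e-06). Abhd6, a second monoacylglycerol lipase, rose on the ketogenic diet (0.37 ± 0.10, adjusted p = 0.00783) and fell on the high-fat diet (-0.35 ± 0.10, adjusted p = 0.0247), both against chow. The direct comparison of ketogenic with high-fat livers gave 0.72 ± 0.10 (adjusted p = 5.12e-05). Abhd12 rose on both diets, by 0.32 ± 0.08 and 0.25 ± 0.08 (adjusted p = 0.00356 and 0.0386).

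Pnpla3, on chromosome 15 (chr15:84167837-84187236, plus strand), fell most. Raw reads per library were 2, 2, 6, 4 and 5 in ketogenic livers, against 20, 10, 17, 17 and 10 in high-fat livers and 196, 154, 127, 243 and 63 in chow livers. In normalised CPM these were 0.0472 to 0.164 in ketogenic, 0.300 to 0.569 in high-fat and 2.15 to 7.16 in chow livers. The 3 diets did not overlap. Chow livers varied most in absolute level, with a mean of 4.46 ± 1.99 (SD, n = 5).

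The fitted level of Pnpla3 was 47.4-fold lower in ketogenic than in chow livers (log2 fold change -5.57 ± 0.38, adjusted p = 1.49e-08). It was 10.5-fold lower in high-fat than in chow livers (-3.40 ± 0.31, adjusted p = 6.06e-06) and 4.50-fold lower in ketogenic than in high-fat livers (-2.17 ± 0.48, adjusted p = 0.00323). Among 13967 genes it had the fifth lowest log2 fold change in ketogenic against chow and the fourth lowest in high-fat against chow. Summed over libraries, the 19 ketogenic and 783 chow reads gave a ratio of 47.0 with a 95% counting interval of 29.9 to 78.5, and the 74 high-fat reads gave 10.6 (8.36 to 13.7) against chow. The 2 comparisons share the chow libraries, and these intervals cover counting error only.

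The 250 bases before the RefSeq start of Pnpla3 (GRCm38.p6, plus strand), which lies 21 bases before the start of Pnpla3-201, are shown because this gene carries the largest fall:
Pnpla3, chr15:84167566-84167815: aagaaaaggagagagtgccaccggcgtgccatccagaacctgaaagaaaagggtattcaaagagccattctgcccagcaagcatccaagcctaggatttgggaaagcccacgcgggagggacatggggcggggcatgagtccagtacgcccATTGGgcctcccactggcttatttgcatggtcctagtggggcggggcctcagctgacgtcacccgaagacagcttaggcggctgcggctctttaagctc
The capitals mark a CCAAT box, read on the other strand, 99 bases before the start, and 33.8% of promoter windows hold that motif. The letters searched as a sterol element core (TCACNCCAC, held by 1.05% of windows), as an E-box and as a PPAR/RXR direct repeat (AGGTCA repeated after 1 base, held by 0.0335%) are not in this window on either strand. Of the 8 genes, 7 had an entry in the RefSeq promoter table, with 10 windows, and neither the sterol core nor the direct repeat was in any of them. With motifs this rare, absence from 10 windows of 250 bases was likely in advance. It says nothing about control by these factors. No promoter sequence of Lpl was used here.

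Pnpla5, the gene of another patatin-like lipase, lies 44662 bases from Pnpla3 on the opposite strand and was also lower. It had 0 reads in all 5 ketogenic libraries, 0 to 3 in the high-fat libraries and 20 to 75 in the chow libraries. Set against a floor of 3 counts over the ketogenic group, it was at least 79.1-fold lower in ketogenic than in chow livers, and it also passed in high-fat against chow (adjusted p = 0.000345). The nearest gene on the other side, Samm50, which encodes a mitochondrial outer membrane assembly protein and lies 5005 bases away, was not called in ketogenic against chow (log2 fold change -0.12 ± 0.08, adjusted p = 0.232) and fell by 0.35 ± 0.08 on the high-fat diet (adjusted p = 0.00506). Parvb, 44807 bases away, passed in neither (adjusted p = 0.828 and 0.745). These neighbours were examined after the values of Pnpla3 were seen.

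On a list of genes tied to SREBP1 and ChREBP, most of them lipogenic, 13 of 17 fell and 1 (Txnip) rose in ketogenic against chow. The 13 include Srebf1 and Mlxipl themselves. The median log2 fold change was -1.12, beside -0.01 over all genes. In high-fat against chow 10 of 17 fell and 1 (Nr1h3) rose, with a median of -0.63, where 7.32% of all genes fell and 8.30% rose. Srebf1, which encodes SREBP1, averaged 77.2 ± 14.6 normalised CPM in ketogenic, 126 ± 21.5 in high-fat and 157 ± 43.8 in chow livers (SD, n = 5 each). It passed in ketogenic against chow (log2 fold change -1.02 ± 0.19, adjusted p = 0.000827) and not in high-fat against chow (-0.32 ± 0.18, adjusted p = 0.259). Mlxipl, which encodes ChREBP, passed in both, at -1.22 ± 0.11 (adjusted p = 2.22e-07) and -0.36 ± 0.11 (adjusted p = 0.0330).

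Scd1, a stearoyl-CoA desaturase, had log2 fold changes against chow of -6.63 ± 0.46 in ketogenic and -1.51 ± 0.37 in high-fat livers (adjusted p = 3.42e-07 and 0.0153). Me1, malic enzyme, was also lower in both (log2 fold change -2.18 ± 0.17 and -1.76 ± 0.17, adjusted p = 2.99e-07 and 2.23e-05). Within chow, replicate 18 was the highest library for Pnpla3 (7.16 normalised CPM), Pnpla5 (2.21), Srebf1 (229) and Scd1 (18552), and replicate 19 was the lowest for Pnpla3 (2.15) and Scd1 (7157). Pnpla5 was lowest in replicate 16 (0.531) and Srebf1 in replicate 17 (121). With 5 libraries this is a description only.

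**Figure D3:**
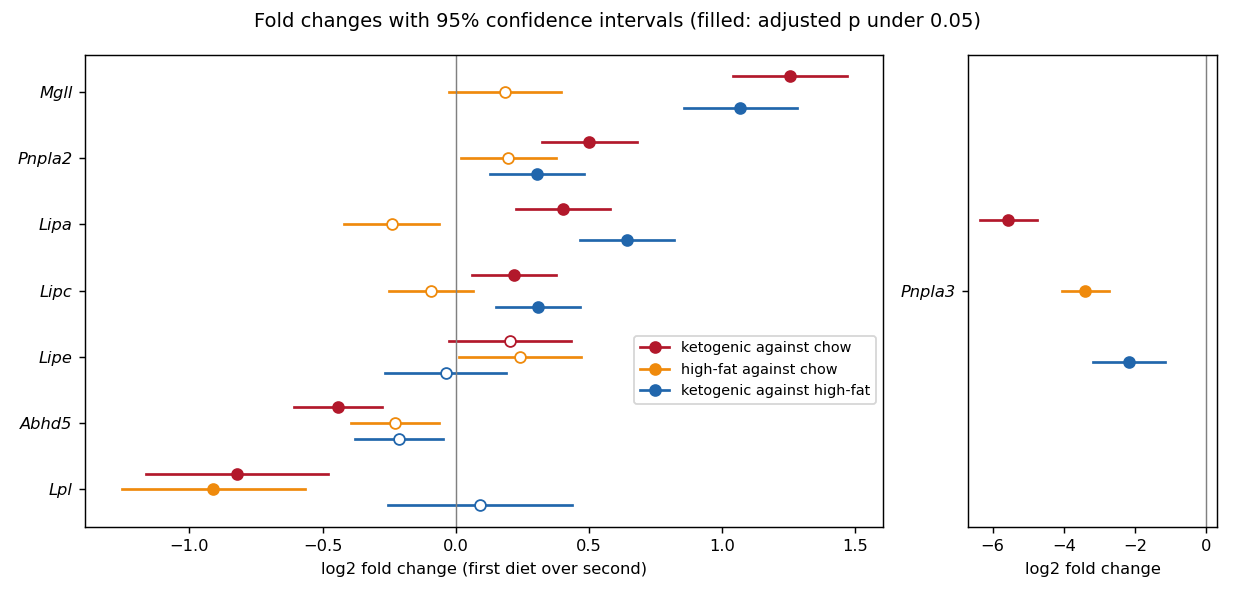
Log2 fold changes (first diet over second) with 95% confidence intervals for the 8 genes in the 3 comparisons, filled where the adjusted p is under 0.05. Pnpla3 has its own axis; Lpl is lower on both diets than on chow, and Lipa is the gene whose 2 estimates against chow, 0.40 and -0.24, have opposite signs with intervals that leave out 0.

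Lipa, on chromosome 19 (chr19:34492318-34527474, minus strand), encodes lysosomal acid lipase. It had 377, 324, 350, 315 and 315 normalised CPM in ketogenic livers, against 247, 214, 205, 231 and 180 in high-fat livers and 270, 263, 261, 263 and 216 in chow livers. All ketogenic libraries were above all others, and all high-fat libraries lay below 4 of the 5 chow libraries. The ketogenic level was 1.32-fold that of chow (log2 fold change 0.40 ± 0.08, adjusted p = 0.00132) and 1.56-fold that of high-fat livers (0.64 ± 0.08, adjusted p = 2.73e-05). High-fat against chow gave -0.24 ± 0.08, which did not pass (adjusted p = 0.0598).

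Of 26 other lysosomal genes tested, 10 rose and 4 fell in ketogenic against chow, where 16.2% of all genes rose and 14.6% fell, so the share that fell was near that of all genes. The median log2 fold change was 0.13. Those that rose include Psap, the precursor of saposins that present lipids to lysosomal enzymes (0.48 ± 0.07, adjusted p = 3.12e-05), Hexa, a hexosaminidase subunit (0.58 ± 0.08, adjusted p = 4.19e-05), and the autophagosome gene Map1lc3b (0.49 ± 0.07, adjusted p = 7.42e-05). The genes that fell were Tfe3, Sqstm1, Gaa and Atp6v1h. Tfeb, a main transcription factor of lysosomal genes, had -0.26 ± 0.11 and did not pass (adjusted p = 0.0896). In high-fat against chow 2 of 26 rose (Npc1, Scarb2) and 3 fell (Ctsd, Sqstm1 and the proton pump subunit Atp6v1h, -0.50 ± 0.09, adjusted p = 0.00135), where 8.30% of all genes rose and 7.32% fell.

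Lipc, on chromosome 9 (chr9:70798128-70952226, minus strand), encodes hepatic lipase, made by hepatocytes. Normalised CPM was 135, 127, 105, 127 and 129 in ketogenic livers, against 108, 103, 99.5, 95.8 and 96.5 in high-fat livers and 108, 117, 118, 94.4 and 98.0 in chow livers. Ketogenic replicate 4 fell within the range of the other diets, and its 4 companions lay above all other libraries. The rise against chow was small, at 0.22 ± 0.08 (1.16-fold, adjusted p = 0.0348), and did not pass in 8 of 23 alternative fits, whose adjusted p ranged from 0.00664 to 0.0975. Against high-fat livers it was 0.31 ± 0.08 (1.24-fold, adjusted p = 0.00583). High-fat against chow gave -0.09 (95% interval -0.25 to 0.07, adjusted p = 0.443).

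Lpl, on chromosome 8 (chr8:68880491-68907448, plus strand), encodes lipoprotein lipase, which adult hepatocytes are known to make little of. It had 13.6, 11.5, 17.9, 17.8 and 12.6 normalised CPM in ketogenic livers, against 14.7, 13.9, 16.4, 14.4 and 9.56 in high-fat livers and 18.8, 25.6, 28.0, 28.5 and 29.1 in chow livers. Every chow library was above every library of both other diets. The level was 43.4% below that of chow on the ketogenic diet (log2 fold change -0.82 ± 0.16, adjusted p = 0.00117) and 46.8% below on the high-fat diet (-0.91 ± 0.16, adjusted p = 0.00204). Between ketogenic and high-fat livers the log2 fold change was 0.09, with a 95% interval of -0.26 to 0.43 (adjusted p = 0.722).

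Since other cells also make Lpl, their markers are given beside it. The 12 macrophage and Kupffer cell markers summed to 167 to 253 normalised CPM in ketogenic, 132 to 219 in high-fat and 165 to 205 in chow livers. In ketogenic against chow 1 of 12 (Cd163) rose and the other 11 did not pass, and in high-fat against chow the median log2 fold change of the list was -0.20, with no call. The 10 adipocyte markers summed to 23.5 to 28.5 normalised CPM in ketogenic, 16.9 to 29.3 in high-fat and 24.96 to 37.5 in chow livers.

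Of the adipocyte markers, 6 were too low to test. Of the 4 tested, 1 (Adrb3) fell in ketogenic against chow, where 14.6% of all genes fell. In high-fat against chow 2 (Pparg, Adrb3) fell, where 7.32% of all genes fell. None rose in either, and the median log2 fold changes were -0.06 and -0.41. Adipoq, which defines fat cells, had 1 to 6 reads in ketogenic, 0 to 4 in high-fat and 0 to 61 in chow libraries, and was highest in chow replicate 17. Without that library the log2 fold changes of Lpl were -0.79 (ketogenic) and -0.88 (high-fat) against chow, and both passed. Among chow libraries Lpl was lowest in replicate 15, where Adipoq had 0 reads, and highest in replicate 19, where it had 2. Cfd, another gene of the list, had 23 to 312 reads in ketogenic, 10 to 205 in high-fat and 6 to 85 in chow libraries. The part of fat cells in the Lpl values was not tested.

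Of 16 partners of the extracellular lipases tested, 6 rose and 2 fell in ketogenic against chow (16.2% and 14.6% of all genes), and 1 (Creb3l3) rose in high-fat against chow (8.30% of all genes). Among activators, Apoc2, the cofactor of lipoprotein lipase, averaged 177 ± 43.8 normalised CPM in ketogenic, 102 ± 15.5 in high-fat and 84.3 ± 15.9 in chow livers (SD, n = 5 each), a log2 fold change of 1.07 ± 0.17 over chow on the ketogenic diet (adjusted p = 0.000248). Apoa4 rose by 3.76 ± 0.38 on the log2 scale (adjusted p = 9.78e-06), and Creb3l3, a hepatic transcription factor of apolipoprotein genes, by 0.53 ± 0.06 (adjusted p = 4.73e-06).

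Inhibitors of lipoprotein lipase did not move as a group. Angptl4 rose in ketogenic against chow (1.01 ± 0.29, adjusted p = 0.0186), and Angptl8 (-2.56 ± 0.61, adjusted p = 0.00711) and Apoc3 (-0.30 ± 0.09, adjusted p = 0.0138) fell. Gpihbp1, the capillary anchor of lipoprotein lipase, and Lmf1, its folding factor, passed in neither comparison with chow, with log2 fold changes between -0.10 and 0.11. Lipg, endothelial lipase, a paralog of Lpl and Lipc that acts mainly on phospholipid, averaged 38.4 ± 6.86 normalised CPM in ketogenic, 15.5 ± 2.57 in high-fat and 7.12 ± 0.820 in chow livers (SD, n = 5 each). It rose against chow on both diets, by 2.43 ± 0.14 (adjusted p = 9.17e-09) and 1.12 ± 0.14 (adjusted p = 0.000120).

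Per transcript length, the genes spanned a wide range of levels. In TPM the order in ketogenic livers was Lipa (mean 144), Mgll (139), Lipc (118), Pnpla2 (34.1), Abhd5 (14.2), Lipe (5.93), Lpl (4.96) and Pnpla3 (0.196). In high-fat livers it was Lipc (80.1), Lipa (72.9), Mgll (53.0), Pnpla2 (21.6), Abhd5 (13.8), Lipe (5.31), Lpl (3.71) and Pnpla3 (0.556). In chow livers it was Lipa (86.3), Lipc (80.3), Mgll (46.9), Pnpla2 (19.1), Abhd5 (16.7), Pnpla3 (7.96), Lpl (6.92) and Lipe (4.35).

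Neighbours whose libraries overlapped were Lipa with Mgll and Mgll with Lipc in ketogenic livers, and Lipe with Lpl in ketogenic and high-fat livers. In high-fat livers Lipc overlapped with Lipa, Lipa with Mgll, and Pnpla2 with Abhd5. In chow livers Lipa overlapped with Lipc, Pnpla2 with Abhd5, Pnpla3 with Lpl, and Lpl with Lipe. Pnpla3 was thus sixth of 8 on chow and last, without overlap, on both other diets. Its chow rank rests on a processed transcript of 303 bases that held 57.7 to 63.6% of its TPM there but 14.4 to 17.5% of its reads. The coding transcript Pnpla3-201 alone averaged 3.14 ± 1.56 TPM in chow livers (SD, n = 5), below the mean of Lipe. The place of Lipc above Lipa in high-fat livers likewise rests on a short transcript, Lipc-202, of 376 bases. There it held 21.5 to 31.9% of the TPM of Lipc but 3.26 to 5.45% of its reads. TPM is a share of each library, so the order within a diet is given and differences between diets rest on normalised CPM.

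**Figure D4:**
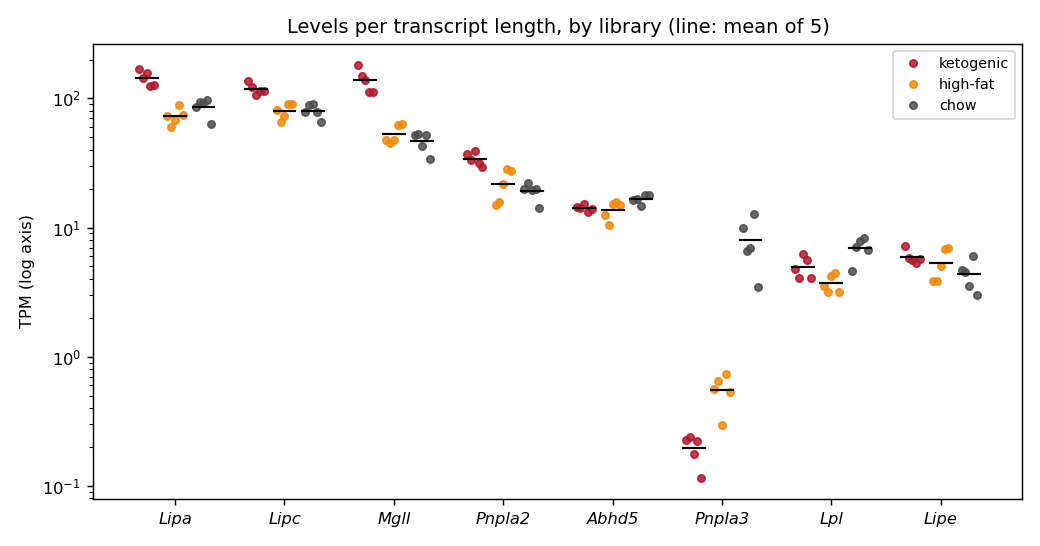
TPM (log axis) of the 8 genes in each ketogenic, high-fat and chow library, with the mean of 5 as a line. Lipa, Lipc and Mgll lie above 30 in all libraries, and Pnpla3 ranges from 0.115 in a ketogenic to 12.8 in a chow library.

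Of 50 annotated transcripts of the 8 genes in the files, 26 passed the filter. In ketogenic against chow 6 rose and 4 fell, from 7 genes, where 10.7% of 37794 transcripts tested changed. High-fat against chow called 3, all lower, from Pnpla3 and Lpl (2.51% of transcripts changed), and ketogenic against high-fat called 7 (6.93% changed). For Lpl, the coding transcript Lpl-201 fell by 0.86 and 0.997 on the log2 scale on the ketogenic and high-fat diets (adjusted p = 0.00464 and 0.00752), while Lpl-202, a retained intron, was not called.

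Most Pnpla2 reads, 73.9 to 89.3% per library, were assigned to Pnpla2-201, which the annotation labels as a target of nonsense-mediated decay. It rose in ketogenic against chow by 0.56 ± 0.10 (adjusted p = 0.00240), as did the coding transcript Pnpla2-206 by 0.77 (adjusted p = 0.0212). A longer coding transcript of Pnpla2, of 1799 bases, had -4.26 ± 1.48 and did not pass (adjusted p = 0.0880). That transcript had 0 to 12 reads in ketogenic and 0 to 95 in chow libraries. The coding transcript of 2625 bases had 1.02 ± 0.68 and did not pass either (adjusted p = 0.426). The rise of Pnpla2 was therefore not called in every coding transcript tested. For Abhd5 the fall was called in Abhd5-201, also labelled a decay target (-0.64 ± 0.17, adjusted p = 0.0261). It was not called in the main coding transcript Abhd5-204 (-0.15 ± 0.13, adjusted p = 0.592). Another coding transcript of Abhd5, of 2576 bases, had -2.84 ± 0.99 and did not pass either (adjusted p = 0.0897). That transcript held 2.88 to 20.6% of Abhd5 reads in chow libraries and 0 to 3.70% in ketogenic libraries. The fall of Abhd5 can therefore not be placed in the decay target alone. Lipc-201 rose in ketogenic against chow (0.41 ± 0.12, adjusted p = 0.0466), while Lipc-204 had -0.45 (adjusted p = 0.245). These transcripts share much of their sequence, so reads could be split between them wrongly, and the error of that assignment is not in the files.

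Genes with centred log2 levels close to those of each gene over the 15 libraries were found by the root-mean-square difference among 8615 candidates. Nearest to Mgll were Hadhb, a subunit of the mitochondrial trifunctional protein (0.12), and Chrna2 (0.13), where the median over candidates was 0.58. Pnpla2 was nearest to Bcl2l13 and Map1lc3b (0.09 and 0.10, median 0.29), Abhd5 to Ccdc12 (0.10, median 0.27), Lipa to Hsd17b12 and Chdh (0.09 and 0.10, median 0.33) and Lipc to Ctsh and Acaa2 (both 0.09, median 0.23). The distances were wider for Lpl, to Pter and Clcn6 (0.24 and 0.25, median 0.52), and for Pnpla3, to Chrna4 and Fabp5 (0.76 and 0.97, median 2.09).

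Lists of related genes give the setting, to be read against the 16.2% of all genes that rose and 14.6% that fell in ketogenic against chow, and the 8.30% and 7.32% in high-fat against chow. Droplet partners rose in 10 of 15 in ketogenic against chow, and the other 5 did not pass (median log2 fold change 0.48), and rose in 2 (Plin4, Fitm2) in high-fat against chow. Besides Plin5, Hsd17b11, a droplet-associated dehydrogenase, rose by 0.88 ± 0.07 (adjusted p = 6.29e-08), Fitm2, which acts in droplet formation, by 1.21 ± 0.11 (adjusted p = 3.16e-07), and Cidec, a droplet fusion protein, by 4.47 ± 0.40 (adjusted p = 3.92e-06). Cidec averaged 35.4 ± 9.47 normalised CPM in ketogenic, 3.397 ± 1.90 in high-fat and 1.60 ± 0.781 in chow livers (SD, n = 5 each).

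PPARalpha senses fatty acids, and its targets rose in 14 of 18 in ketogenic against chow, with 4 not passing (median 0.89; 16.2% of all genes rose). Among them were Cpt1a (1.79 ± 0.09, adjusted p = 6.52e-10) and Acadm (1.28 ± 0.08, adjusted p = 2.12e-09). In high-fat against chow 3 of these rose (Ppara, Cpt1a, Creb3l3) and 3 fell (Pdk4, Ehhadh, Fabp1), with a median of 0.11. Other neutral lipid hydrolases rose in 6 and fell in 7 of 16 in ketogenic against chow (16.2% and 14.6% of all genes), with Ddhd2 at 0.62 ± 0.09 (adjusted p = 2.93e-05). Insulin and FoxO1 genes rose in 4 of 12 and fell in 1 (Ppp1r3b), beside the same shares of all genes, with Trib3 at 1.16 ± 0.21 (adjusted p = 0.000296), Foxo1 at 0.56 ± 0.17 (adjusted p = 0.0253) and Insr at 0.23 ± 0.07 (adjusted p = 0.0246). Sirt1 had the smallest adjusted p of these 12 in high-fat against chow (0.22 ± 0.09, adjusted p = 0.109).

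**Figure D5:**
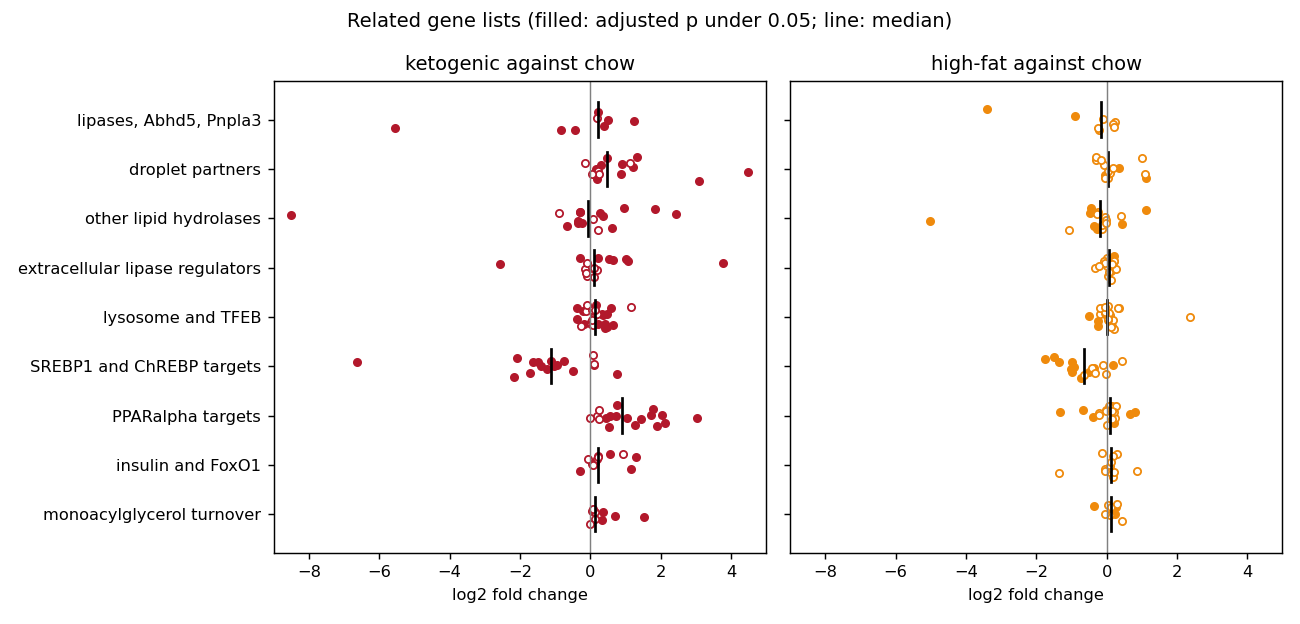
Log2 fold changes of single genes (points, filled where the adjusted p is under 0.05) in the 8 genes and 8 related lists, for ketogenic against chow and high-fat against chow, with the median as a line. The lowest point, Pnpla5, is a fitted value for a gene with 0 ketogenic reads. The median of the SREBP1 and ChREBP list lies left of 0 in both panels, with some of its genes right of 0.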

How the data were processed

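Total RNA of liver was sequenced in 15 libraries, 5 per diet. The submitters' processing notes name the read trimmer Trimmomatic 0.36, the pseudoaligner kallisto 0.44, edgeR 3.28 and, as build, GRCm38.p6, without settings. The deposited tables hold an estimated count and a TPM per transcript, per the file headers. GENCODE M21, chosen for its match to the identifiers, assigned 105734 of 106332 transcripts to 25731 genes. The other 598 held 0.184 to 0.223% of reads and were dropped.

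Estimated counts were summed per gene, rounded, filtered with filterByExpr (minimum count 10, total 15; 13967 genes left), scaled with TMM and tested with edgeR 4.0.16 (R 4.3.3; quasi-likelihood F test, 15 libraries in 1 fit, Benjamini-Hochberg adjustment, threshold 0.05). Transcripts were tested likewise. Values after ± without another label are standard errors. The code was tested on simulated data. The common biological coefficient of variation was 0.1306, and no pair of libraries of a diet agreed within sampling noise (chi-square per degree of freedom 18.5 to 113.4 over 30 pairs). Promoters are RefSeq's, and 8 motifs were searched on both strands in 250 bases before each start.

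The 8 genes, the lists and the tests were chosen with earlier results of these data known. Genes named are the 8, 15 direct partners, the 3 with the smallest adjusted p per list in ketogenic against chow and the 1 in high-fat against chow, and the 2 nearest genes of each changed gene (mean of at least 5 CPM, no predicted genes). Of these, 3 are not reported here. Genes named where a count is 5 or fewer, neighbours of Pnpla3 and chow-library comparisons were chosen after their values were seen. Alternatives were other scalings and filters, DESeq2 1.42.0, an effective length offset, leaving out Mup genes, fits of 2 diets and leaving out each library. Marker lists also covered stellate, endothelial, biliary, acinar and muscle cells.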

Additional observations from a re-analysis of the deposited data

Results flagged for a closer look

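In 3 of 24 groups of 5 libraries (8 genes, 3 diets), the gap between 1 library and the other 4 took most of the range of the group. Chance flags about 5% of such groups. Lipe had 10.86 normalised CPM in high-fat replicate 9, against 11.52 to 11.77 in the other high-fat libraries. That step is small in level, flagged because the others lay close together, and is within the chow range of 7.19 to 12.36. Lipa had 215.9 in chow replicate 19, against 260.7 to 269.5 in the other chow libraries. Lipc had 105 in ketogenic replicate 4, against 127 to 135 in the other ketogenic libraries.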

How the results depend on the processing

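Of 552 values of the 8 genes under 23 alternatives, 517 kept their direction and side of the threshold, 8 lost the call, 24 gained one and 3 changed sign. The 8 losses were all Lipc in ketogenic against chow. The sign changes were uncalled values: Lipe in ketogenic against high-fat (0.02226 with library totals only and -0.06193 to 0.0008461 when 1 library was left out) and Lpl in ketogenic against high-fat (-0.01638 to 0.1664 when 1 library was left out). In high-fat against chow, 4 of the 8 genes changed with the stricter filter and with DESeq2, and 2 to 5 when 1 library was left out (5 without high-fat replicate 9). The cause was not tested. Abhd5 passed there in 9 alternatives (adjusted p 0.0242 to 0.152) and Lipa in 4 (0.0211 to 0.145), while Abhd5 in ketogenic against high-fat passed in 8 (0.0322 to 0.211). Over all genes, calls ranged from 3602 to 4516 in ketogenic against chow, 1507 to 2754 in high-fat against chow and 2862 to 3943 in ketogenic against high-fat. With library totals only, 68.5% of calls in ketogenic against chow were rises, against 52.6% with TMM, and 70.6% against 50.1% in ketogenic against high-fat. The order of levels was the same with CPM divided by effective length. That length was itself weighted by TPM, so the order within a library could hardly differ, and this is no independent check. No paired analysis was possible because the diets share no replicate number. Depth limits Pnpla3 in ketogenic livers, at 2 to 6 reads per library.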
